A study of Mus musculus with 12 samples.

Results

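The matrix metalloproteinases (MMPs), the ADAMTS proteases and the tissue inhibitors of metalloproteinases (TIMPs) were followed in differentiating mouse embryonic stem (ES) cells in which the chromatin gene Smchd1 was deleted or left floxed. All rows of the deposited table named Mmp, Adamts or Timp followed by a number only (or by a number and a letter, for Mmp1a and Mmp1b) were taken, which gave 46 of 25965 genes: 23 Mmp, 19 Adamts and 4 Timp genes. Of these, 28 exceeded a log2 value of 0, as deposited, in 2 or more of the 12 libraries (13 Mmp, 12 Adamts and 3 Timp genes), and these 28 were tested. The other 18 are described by their reads. RNA came from C57BL/6 ES cells, labelled male, that were differentiated to neuromesodermal progenitors, the tail-bud cells that can give both spinal cord and paraxial mesoderm. The 6 groups were Smchd1 del/del and Smchd1 fl/fl cells, each taken on day 1, day 5 and day 8, with 2 libraries a group, 1 from line 1 and 1 from line 3. Each line had been derived from a single blastocyst in 2i and LIF and then split. The del/del part was transduced with the retrovirus MSCV-Cre-puro and selected with puromycin, and the fl/fl part was neither transduced nor selected, so that the deletion cannot be told apart from transduction and selection. All cells passed through serum and LIF, after which LIF was withdrawn and Fgf2, then a Gsk3 inhibitor, then Gdf11 were supplied. The first sampling is labelled day 1 and undifferentiated, and is called day 0 in the protocol.

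MMPs are zinc endopeptidases that cut collagens, laminins, fibronectin and other proteins of the extracellular matrix. Some are secreted (collagenases, gelatinases, stromelysins) and others are held in the plasma membrane, where they also activate secreted family members. ADAMTS proteases are secreted and carry thrombospondin repeats, with which they bind matrix: some cut the proteoglycans versican and aggrecan, some trim procollagens, and some act on fibrillin microfibrils. TIMPs bind the active site of MMPs, and TIMP3 also inhibits several ADAM and ADAMTS enzymes. Cells that leave an epithelium in the early embryo cross and remodel a basement membrane, a process in which these enzymes take part.

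Levels are given as RPM (reads per M reads, M standing for mega) relative to the median gene: each library was shifted by the median of its log2 ratios to the mean of all libraries. Gene reads numbered 1.51 to 8.67 M per library, the fewest in the fl/fl day 8 library of line 3. Only the deposited column name of this library carries the word merge. In that library genes held 10.1% of the total by which RPM is scaled, against up to 27.8% elsewhere. Smchd1 itself, the check of the labels, had 197 and 271 reads in del/del and 1212 and 1495 in fl/fl libraries on day 1, 102 and 104 against 366 and 919 on day 5, and 161 and 140 against 728 and 111 on day 8 (line 1, then line 3, here and below). Scaled for depth, its day 8 levels were 1.92 and 1.82 (log2) in the del/del libraries and 4.60 and 3.99 in those of fl/fl. On the scale as deposited, every gene's difference between genotypes is larger by 0.88 on day 8 and by 0.16 on day 1 and differs by -0.37 on day 5 (log2). The same shift is -0.91 in del/del and -0.38 in fl/fl for day 5 minus day 1, and 0.70 in del/del and -0.55 in fl/fl for day 8 minus day 5. Nothing in the labels says that the libraries of a group are more than 2 lines grown side by side, so p-values measure the spread between these libraries.

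Promoter sequences differed between the MMP genes clustered on chromosome 9 and those other genes of these families for which a promoter window was given. RefSeq (GRCm38.p6) gave promoter windows for 32 of the 46 genes, 35 windows in all, of which 12 belong to the MMP cluster of chromosome 9 and 23 to the other genes. Mmp2, Mmp9, Mmp17, Adamts10 and Adamts19, all called on day 8 below, had no window, so the motif counts do not cover them. The AP-1 element (TGANTCA, searched on both strands, like every motif here) was found in 8 of the 12 cluster windows and in 0 of the 23 others, against 6.75% of all 32851 windows. The TATA box (TATAAA) was found in 7 of 12 cluster windows, in 2 of 23 others and in 12.4% of all windows. The GC box (GGGCGG) was found in 0 of 12 cluster windows, in 16 of 23 others and in 32.7% of all windows. The PEA3 element (AGGAAG) was in 7 of 12, in 7 of 23 and in 29.5% of all. Cluster windows held a median of 1 CpG dinucleotide (0 to 7), the other windows 15 (1 to 35) and all windows 6. The 250 bases before the annotated start are shown for 5 genes that the results below turn on: Mmp11, the gene with the firmest difference between genotypes, Mmp14 and Timp2, which rose with time, Mmp25, which fell, and Mmp10 of the chromosome 9 cluster. Capitals mark the motifs named above, which are matches of letters and not shown to be sites.
Mmp11 (chr10:75932503-75932752, minus strand): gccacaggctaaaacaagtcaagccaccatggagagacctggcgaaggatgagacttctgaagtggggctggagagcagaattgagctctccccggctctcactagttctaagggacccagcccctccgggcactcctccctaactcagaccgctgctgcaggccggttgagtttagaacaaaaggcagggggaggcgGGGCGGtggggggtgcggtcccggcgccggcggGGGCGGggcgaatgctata
Mmp14 (chr14:54431348-54431597, plus strand): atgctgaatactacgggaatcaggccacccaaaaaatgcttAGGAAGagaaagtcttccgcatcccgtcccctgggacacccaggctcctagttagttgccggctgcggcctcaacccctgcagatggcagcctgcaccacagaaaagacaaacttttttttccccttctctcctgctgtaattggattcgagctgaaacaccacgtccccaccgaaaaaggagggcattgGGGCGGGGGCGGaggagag
Timp2 (chr11:118355412-118355661, minus strand): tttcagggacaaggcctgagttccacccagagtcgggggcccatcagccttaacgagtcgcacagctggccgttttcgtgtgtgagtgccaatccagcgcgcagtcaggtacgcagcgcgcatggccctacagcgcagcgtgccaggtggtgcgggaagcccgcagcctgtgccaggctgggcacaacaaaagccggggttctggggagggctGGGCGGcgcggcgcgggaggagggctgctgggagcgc
Mmp25 (chr17:23645270-23645519, minus strand): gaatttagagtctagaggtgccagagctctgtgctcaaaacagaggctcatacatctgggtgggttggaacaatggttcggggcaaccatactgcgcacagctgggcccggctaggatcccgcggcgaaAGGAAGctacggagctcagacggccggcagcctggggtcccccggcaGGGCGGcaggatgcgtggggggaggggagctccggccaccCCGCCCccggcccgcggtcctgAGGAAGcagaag
Mmp10 (chr9:7502092-7502341, plus strand): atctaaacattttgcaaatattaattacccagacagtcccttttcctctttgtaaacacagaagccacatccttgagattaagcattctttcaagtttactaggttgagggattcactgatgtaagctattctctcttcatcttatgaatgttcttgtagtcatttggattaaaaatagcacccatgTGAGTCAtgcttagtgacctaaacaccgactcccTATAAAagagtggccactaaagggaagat
The Mmp11 window holds GC boxes 52 and 19 bases before the start and no TATA box of these letters, whereas that of Mmp10 holds an AP-1 element 63 and a TATA box 29 bases before it. The window of Mmp14 holds GC boxes that abut each other, 19 and 13 bases before the start, and that of Timp2 a single GC box at 37 bases. In the Mmp25 window GC boxes lie at 74 and 34 bases, the nearer one on the other strand (CCGCCC), and PEA3 elements at 121 and 12 bases.

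Which family members these cells used was read from levels per kb of exon, on the linear scale relative to the median gene. Timp1, an inhibitor of most secreted MMPs, had the highest mean level over the 6 groups (8.27 RPM per kb), followed by Mmp14 (5.54), Timp2 (4.98), Mmp2 (3.88) and Mmp11 (3.58). Timp1 stood at 4.08 and 3.64 in del/del and 3.55 and 4.10 in fl/fl libraries on day 1, at 10.9 and 9.44 against 8.23 and 9.20 on day 5, and at 15.6 and 12.8 against 11.1 and 6.63 on day 8. It led every group on day 1 and day 5. On day 8 Mmp2 had the highest mean in del/del cells, 14.8 RPM per kb, being above Timp1 in line 3 (16.7) and below it in line 1 (12.9), and Timp2 led in fl/fl cells with 13.1. The ADAMTS genes were lower: Adamts7, which cuts cartilage oligomeric matrix protein, averaged 0.986 RPM per kb over the groups, Adamts1, a versican-cutting enzyme, 0.772, and Adamts6, a close relative of Adamts10, 0.669. Timp1 lies within the span of Syn1, Timp3 of Syn3 and Timp4 of Syn2, each on the opposite strand, and Timp3 shares 21.3% of its exon bases with Syn3. In all, 8 of the 46 genes share over 10% of their exon bases with another gene, Mmp19 the most (28.3%). The sources used here do not say whether strand was used in counting, so reads of such pairs may be mixed.

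**Figure D1:**
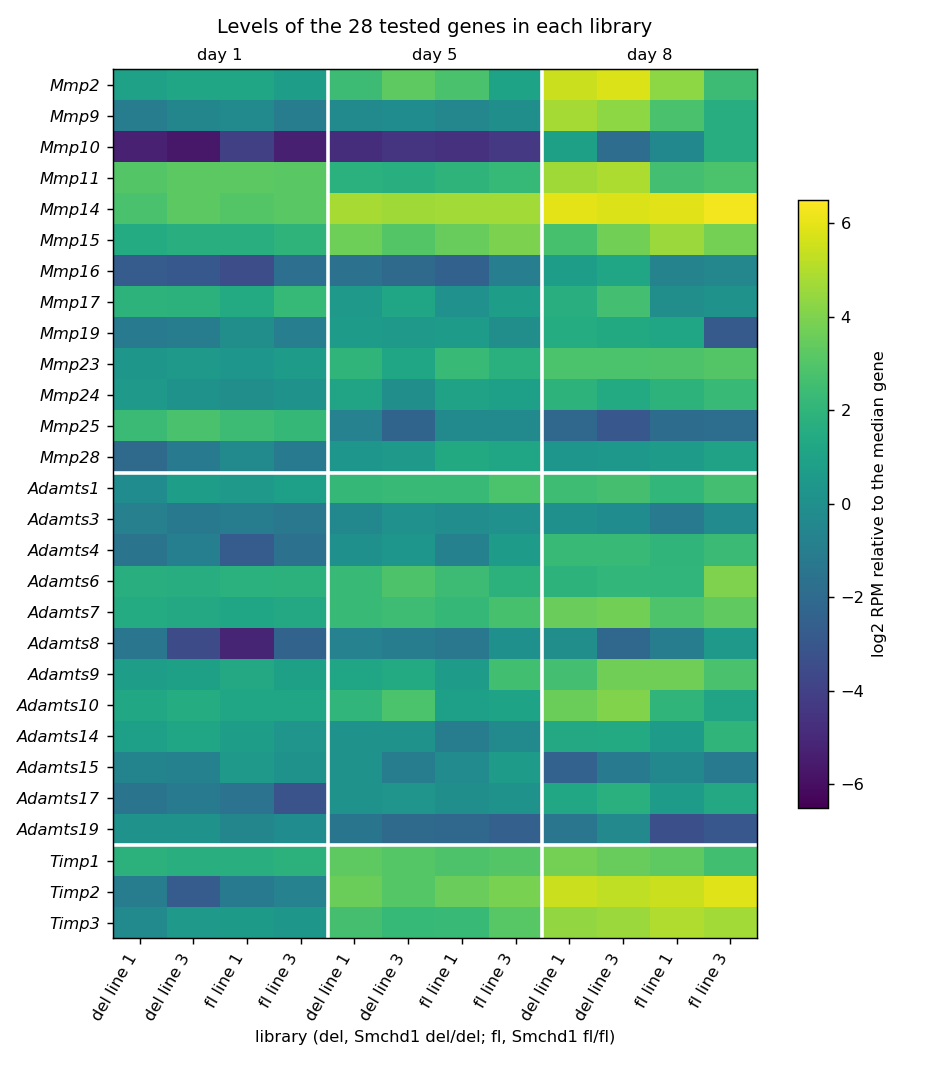
Level of each of the 28 tested genes (rows, by family) in each of the 12 libraries (columns, by day, del/del left of fl/fl), as log2 RPM relative to the median gene. Timp2, Timp3 and Mmp14 brighten with time in both genotypes, Mmp25 darkens, and Mmp11, Mmp9 and Adamts10 are brighter in the del/del than in the fl/fl columns on day 8.

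On day 8, 6 of the 28 tested genes were higher in del/del cells and 0 were lower (limma, adjusted p under 0.05 over all 14063 genes tested), where 7.95% of all tested genes were higher and 7.05% lower. The 6 were the gelatinases Mmp2 and Mmp9, the stromelysin Mmp11, the membrane-bound Mmp17, Adamts10 and Adamts19, with log2 differences of 2.06 to 2.35. None of the 3 tested inhibitors was called (1 had a positive difference). The median log2 difference was 0.08 over the 28 genes and 0.02 over all genes, and 15 of the 28 differences were positive. In bulk RNA, fewer cells of a type and less RNA per cell cannot be told apart.

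Mmp11, or stromelysin-3 (mm10 chr10:75923222-75932502, minus strand, as deposited), is a secreted enzyme activated inside the cell by furin. It stood at 4.67 and 4.90 in del/del and at 2.64 and 2.81 in fl/fl libraries on day 8 (log2 RPM relative to the median gene), from 1085 and 1183 against 187 and 49 reads. The groups lay well apart, and line 1 and line 3 were close within each. The difference was 2.06 ± 0.19 (SE, n = 2 libraries a group; 4.17-fold, limma adjusted p = 0.00194), and the gene was called in all 12 fits that left out a library. Its exons share 5.58% of their bases with Chchd10 on the opposite strand.

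Adamts10, which binds fibrillin microfibrils (chr17:33524204-33553782, plus strand), stood at 3.56 and 4.04 in del/del and at 1.99 and 1.11 in fl/fl libraries. The difference of 2.26 ± 0.35 was called in 11 of 12 fits that left out a library (limma adjusted p = 0.0077). It was also the gene with the smallest p on day 5, as described below.

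Mmp9, gelatinase B (chr2:164940780-164955850, plus strand), stood at 4.75 and 4.29 in del/del and 2.75 and 1.59 in fl/fl libraries, from 1147 and 778 against 202 and 21 reads. Mmp2, gelatinase A (chr8:92827328-92853417, plus strand), stood at 5.44 and 5.82 against 4.31 and 2.41, from 1849 and 2236 against 595 and 37 reads. In both genes del/del was above fl/fl in either line, and the fl/fl libraries were far apart, line 3 being the lower. Mmp9 differed by 2.35 ± 0.45 (limma adjusted p = 0.0144) and Mmp2 by 2.27 ± 0.62 (limma adjusted p = 0.0366). Without the shallow fl/fl library of line 3 the Mmp2 difference was 1.32 (limma adjusted p = 0.228) and that of Mmp9 1.77 (0.0707).

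Mmp17, a GPI-anchored membrane MMP (chr5:129584169-129608875, plus strand), stood at 1.66 and 2.63 in del/del and at -0.05 and 0.20 in fl/fl libraries. Its difference was 2.07 ± 0.43 (limma adjusted p = 0.0169). Adamts19 (chr18:58836764-59053678, plus strand), an enzyme linked to heart valve development, had 16 and 31 reads in del/del and 3 and 0 in fl/fl libraries. Scaled to the depth of the libraries, as all read ratios here, these numbers give a ratio of 7.05 with an exact 95% interval of 2.27 to 35.4 that covers counting error only. The fitted difference of 2.25 ± 0.57 (limma adjusted p = 0.0286) rests on an entry of 0.9 reads for the library with 0, and was not called by voom on the recovered reads (0.057).

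Leaving out line 3 of the day 8 fl/fl group, 2 of the 6 remained called, Mmp11 and Adamts10, and leaving out line 3 of the day 8 del/del group left Mmp11 alone. Without line 1 of the day 8 del/del group, or without any 1 of the day 1 libraries, which share in the estimate of the spread, 4 genes were called. On the deposited scale 9 genes were higher and 0 lower, the 6 with Timp1, Adamts7 and Mmp19.

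**Figure D2:**
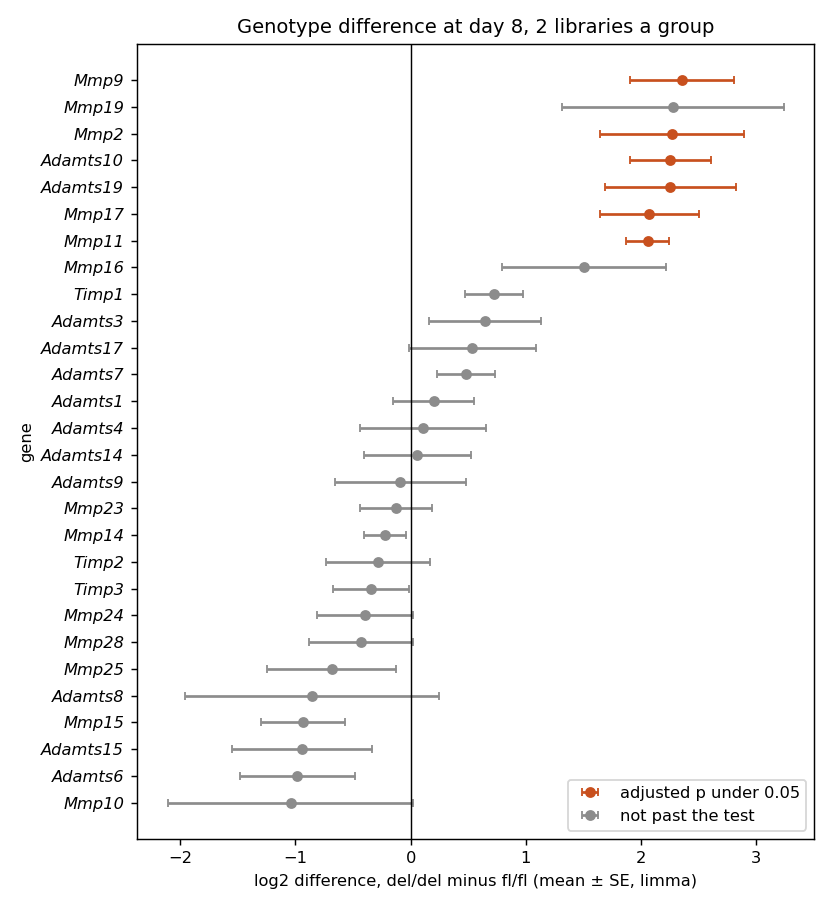
Genotype difference of the 28 tested genes on day 8 (del/del minus fl/fl, log2, mean ± SE from limma, 2 libraries a group), ordered by size. The 6 genes past the test lie between 2.06 and 2.35, and Mmp19, at 2.28, has a standard error of 0.96 and did not pass.

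The remaining 22 tested genes were not called on day 8. Mmp19 stood at 1.55 and 1.38 in del/del and at 1.18 and -2.80 in fl/fl libraries, the last from 1 read, and its difference of 2.28 ± 0.96 had a limma adjusted p of 0.122. Timp1 differed by 0.72 ± 0.25 (limma adjusted p = 0.0748, the smallest of the 22) and the fibrillar-collagen-cutting, MMP2-activating Mmp14 by -0.22 ± 0.18. Mmp15, another membrane-bound MMP, stood at 2.72 and 3.73 against 4.55 and 3.77, a difference of -0.94 ± 0.37 that limma did not call (adjusted p = 0.1) and voom did (0.0438). The other inhibitors differed by -0.28 ± 0.45 (Timp2) and -0.34 ± 0.33 (Timp3). On the deposited scale Mmp14, Timp2 and Timp3 had differences of the other sign (0.66, 0.60 and 0.54), also not called, so no direction is given for them. The difference of Mmp15 is nearly cancelled by the 0.88 that the deposited scale adds on day 8. Without regard to the test, del/del libraries lay wholly above fl/fl libraries in 11 of the 28 genes, where 32.1% of all tested genes did so, and wholly below in 5, where 30.9% did so.

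Summed per kb over all 23 genes, MMP transcripts reached 48.6 and 50.8 RPM per kb in del/del and 30.4 and 27.8 in fl/fl libraries on day 8. Gelatinases made up 20.5 and 22.2 of this sum in del/del and 7.77 and 2.43 in fl/fl libraries, and stromelysins 10.3 and 10.9 against 2.67 and 4.28. Mmp11 made up most of the stromelysin sum (9.17 and 10.7 against 2.24 and 2.53), while Mmp10 stood at 1.09 and 0.161 against 0.425 and 1.75 and Mmp3 at 0. The 7 membrane-bound enzymes, Mmp17 among them, summed to 16.3 and 16.5 in del/del and to 18.8 and 20.3 in fl/fl libraries. TIMP sums overlapped, at 29.5 and 25.6 against 26.0 and 24.7. The TIMP sum divided by the MMP sum, a ratio within each library that no scaling moves, was 0.551 and 0.408 in del/del and 0.430 and 0.504 in fl/fl on day 1, 1.10 and 0.989 against 0.837 and 1.08 on day 5, and 0.608 and 0.504 against 0.857 and 0.888 on day 8. The groups overlapped on day 1 and day 5 and did not on day 8. ADAMTS sums overlapped between genotypes on day 8 (7.82 and 9.29 against 5.86 and 8.50). Without the shift to the median gene, by contrast, the day 8 sums of all of these sets were higher in both del/del libraries: membrane-bound enzymes summed to 20.8 and 19.3 RPM per kb in del/del and 17.6 and 9.52 in fl/fl libraries, TIMPs to 37.7 and 29.8 against 24.4 and 11.6, and ADAMTS genes to 9.98 and 10.8 against 5.50 and 3.98.

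**Figure D3:**
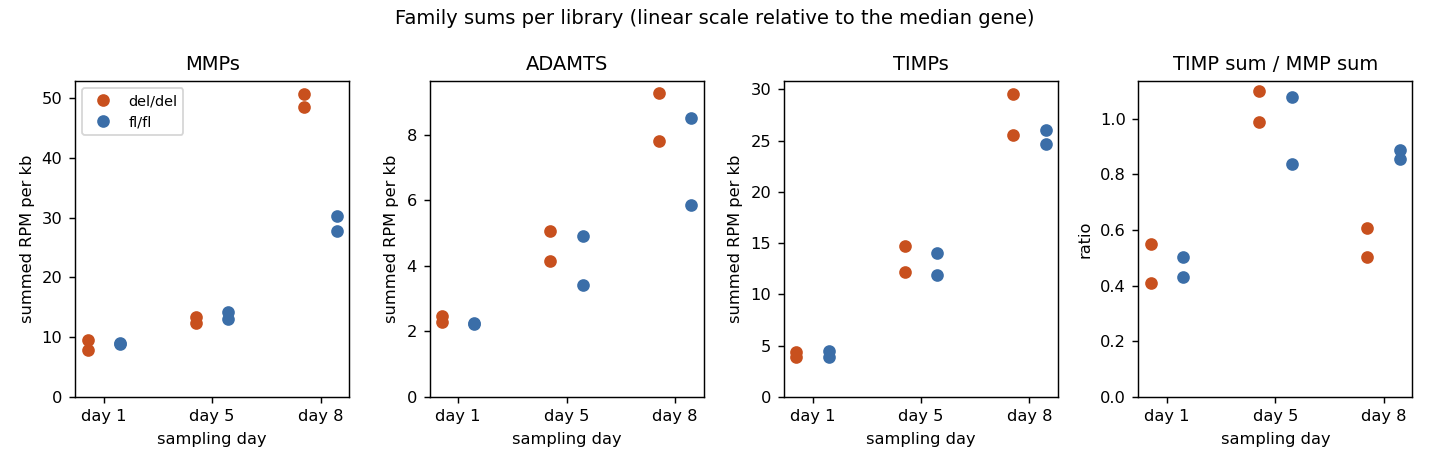
Summed level of the 23 MMP, 19 ADAMTS and 4 TIMP genes in each library (RPM per kb relative to the median gene, linear axes from 0) and the TIMP sum over the MMP sum, by day, del/del left of fl/fl. On day 8 the MMP sums of the del/del libraries (48.6 and 50.8) lie above those of fl/fl (30.4 and 27.8), while the TIMP sums overlap on this scale.

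Markers of other cell types were also read on day 8, where 7.95% of all tested genes were called higher and 7.05% lower. A list of 11 fibroblast or mesenchyme markers, all with reads, summed to 530.6 and 664.4 RPM in del/del and 286 and 94.3 in fl/fl libraries, and 3 of the 11 were called higher (Pdgfrb by 2.76, Thy1 by 4.66 and Twist1 by 1.05, log2) and 0 lower, none of which passed the test without the shallow fl/fl library (Pdgfrb 2.25, Thy1 2.92 and Twist1 0.96). In the other direction, 10 extraembryonic endoderm markers summed to 275.2 and 482.4 RPM in del/del and 790 and 1058 in fl/fl libraries, and 11 trophoblast markers to 129.6 and 89.1 against 245 and 616.2. Endothelial markers (7) summed to 14.6 and 32.4 against 80.2 and 76.1, and macrophage and leukocyte markers (6 in the table) to 11.6 and 7.58 against 21.1 and 33.4, with Lyz2 and Tyrobp at 0 in all day 8 libraries. Neuromesodermal markers (7) summed to 19.6 and 15.8 against 30.8 and 34.0, and naive ES cell markers (7) to 66.1 and 54.4 against 77.5 and 82.5. Members of some lists disagreed. Differences were positive in 2 of 6 tested neuromesodermal (Tbx6 1.75, Fgf8 0.86), 2 of 7 naive (Nanog 0.63, Tbx3 0.61) and 1 of 7 extraembryonic endoderm markers (Gata6 0.17). Of the 11 fibroblast markers 10 were positive, Pdgfra (-0.33) being the exception. No tested trophoblast, endothelial or macrophage and leukocyte marker was positive. Called lower were 2 of 7 tested extraembryonic endoderm, 6 of 10 trophoblast, 1 of 6 endothelial, 3 of 3 macrophage and leukocyte, 1 of 6 neuromesodermal and 2 of 7 naive markers, with 0 called higher, and without the shallow fl/fl library Sox2 alone of these was called. As deposited, the sums of the extraembryonic endoderm, endothelial, neuromesodermal and naive markers overlapped between genotypes, and those of the fibroblast, trophoblast and macrophage lists did not. Among the naive markers called lower, Pou5f1 (-0.86 relative to the median gene) had a difference of the other sign as deposited. The extraembryonic endoderm markers called lower were Col4a1, which is also in the list of basement membrane proteins below, and Sparc. Gata4, Gata6, Sox17 and Dab2 were not called. The part of these cell types in the MMP and ADAMTS differences was not tested.

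On day 1, 0 of the 28 genes were called in either direction (limma; 0.00711% of all tested genes were called, and 0 of the 28 had an unadjusted p under 0.05, or 1 by voom, which also called 0). The smallest p belonged to Timp2 (-0.87 ± 0.45), Mmp28 (-0.86 ± 0.45) and Adamts17 (1.03 ± 0.55), each with a limma adjusted p of 1.00. On day 5, 0 of the 28 were called (limma and voom; 0.00711% of all tested genes), with 1 at an unadjusted p under 0.05, or 2 by voom. That gene was Adamts10, at 2.06 and 2.81 in del/del and 0.82 and 1.06 in fl/fl libraries. Its groups did not overlap, and the difference of 1.5 ± 0.35 had a limma adjusted p of 0.597. Mmp25 (-1.21 ± 0.56) and Mmp28 (-0.86 ± 0.45) followed. Del/del libraries lay wholly above fl/fl libraries in 5 of the 28 genes and wholly below in 3, on day 1 (where 17.4% and 19.8% of all tested genes did so) as on day 5 (where 14.3% and 19.8% did so). Leaving out line 1 of the day 5 del/del group, 2 of the 28 were called on day 5.

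Averaged over the 3 days, Adamts10 was higher in del/del cells by 1.34 ± 0.20 (limma adjusted p = 0.0492), the only one of the 28 called, where 0.0356% of all tested genes were higher, 0.0711% lower and 0.107% called in either direction. On day 1 the groups were close: Adamts10 stood at 1.28 and 1.57 in del/del and 1.15 and 1.20 in fl/fl libraries. With the line as a block the adjusted p was 0.073, on the deposited scale 0.0807, and 10 of the 12 fits that left out a library lost the call, the exceptions being line 1 of the day 5 del/del group (4 called) and line 1 of the day 8 fl/fl group (8 called). Mmp11 (0.55 ± 0.11, limma adjusted p = 0.0639) and Adamts19 (1.12 ± 0.33, limma adjusted p = 0.0931) followed.

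The change between day 5 and day 8 was then compared between genotypes. Mmp11 changed by 2.39 ± 0.26 more in del/del than in fl/fl cells on the log2 scale (interaction in limma, adjusted p = 0.0306), and it was the single gene called of 14063 (0.00711%). The call did not hold with the line as a block (0.0554) or by voom (0.0848), and was lost in 8 of 12 fits that left out a library, among them both day 8 del/del libraries; without line 1 of the day 8 fl/fl group, 4 genes were called. Mmp9 (2.33 ± 0.64, limma adjusted p = 0.267) and Mmp17 (1.67 ± 0.61, 0.34) had the next smallest p. For the change between day 1 and day 5, 0 of the 28 and 0 of all tested genes differed between genotypes by limma, and 0 of the 28 by voom (1 of the 28 at an unadjusted p under 0.05 by either, Adamts10, 1.26 ± 0.50), so that 0% is the background there.

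**Figure D4:**
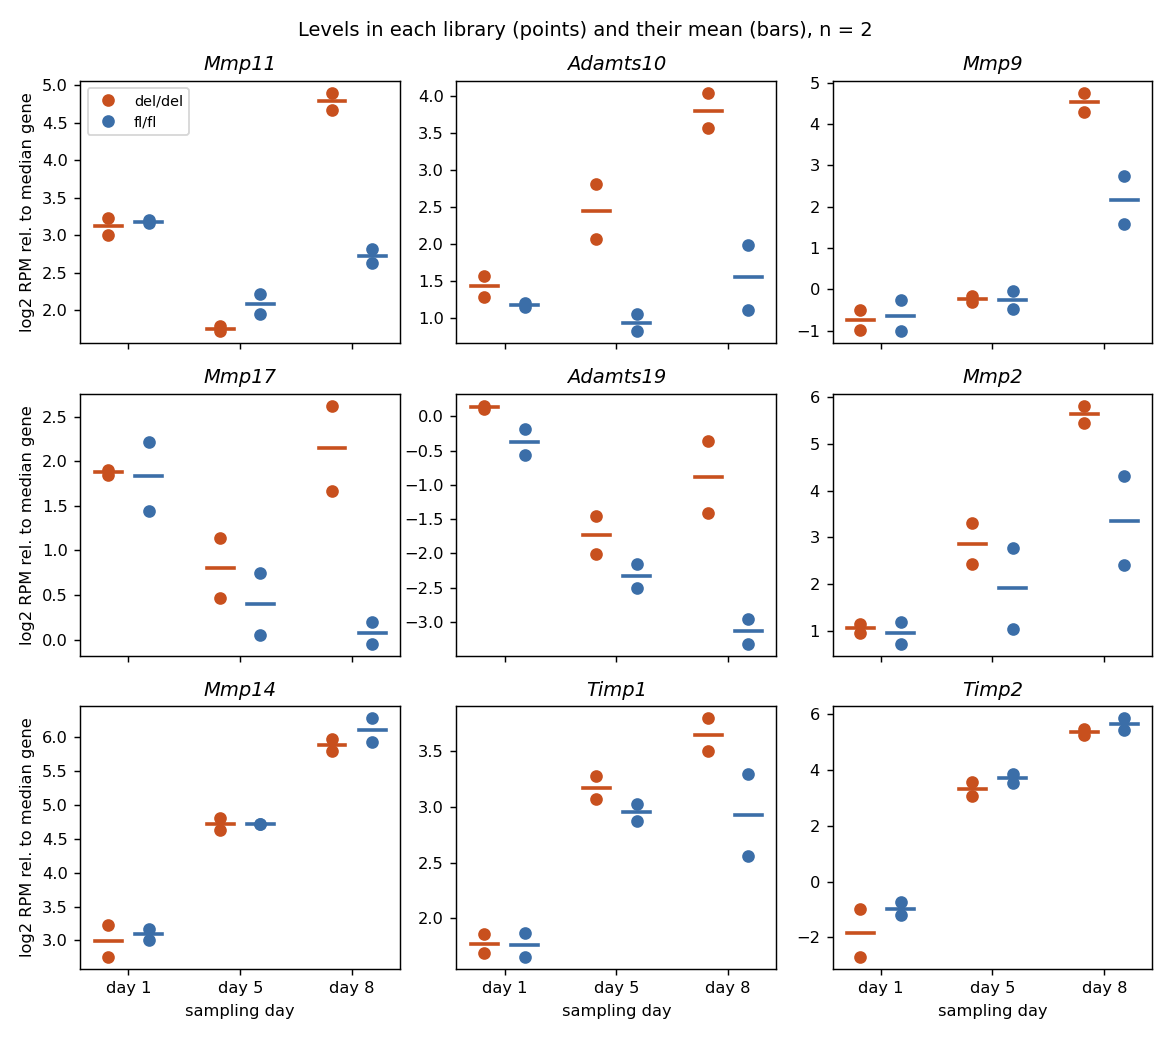
Level in each library (points) and group mean (bars, n = 2) on day 1, day 5 and day 8 for the 6 genes called on day 8 and for Mmp14, Timp1 and Timp2, as log2 RPM relative to the median gene, with each panel on its own axis. The genotypes are furthest apart on day 8 in the upper 6 panels, Adamts10 and Adamts19 also being apart in that direction and Mmp11 in the other on day 5, while Mmp14 and Timp2 climb in both.

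Many of these genes changed with time in both genotypes. Between day 1 and day 5, 12 of the 28 rose and 3 fell in del/del cells, where 21.2% of all tested genes rose and 18.3% fell. In fl/fl cells 12 rose and 4 fell, where 23.0% rose and 17.9% fell. The same 10 rose in both genotypes: Timp1, Timp2, Timp3, Mmp14, Mmp15, Mmp23, Mmp28, Adamts1, Adamts7 and Adamts17. Mmp11, Mmp25 and Adamts19 fell in both. Adamts19 exceeded a log2 value of 0 as deposited in day 1 libraries only, so its fall is in part built into the choice of tested genes. The median difference over the 28 was 1.01 in del/del and 0.92 in fl/fl cells, against 0.03 and -0.04 over all genes. On the deposited scale, 2 rose and 5 fell in del/del cells and 4 rose and 4 fell in fl/fl cells, so the count of genes that rose depends on the scale. Leaving out either day 1 del/del library left 9 calls in del/del cells.

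All 3 tested inhibitors were among those that rose. Timp2, which both inhibits MMPs and helps Mmp14 activate pro-MMP2, stood at -0.98 and -2.70 in del/del and -1.21 and -0.73 in fl/fl libraries on day 1, at 3.56 and 3.08 against 3.55 and 3.86 on day 5, and at 5.47 and 5.27 against 5.45 and 5.86 on day 8. Every library of a later day exceeded every library of an earlier one, in either genotype. Day 5 minus day 1 was 5.17 ± 0.45 in del/del and 4.67 ± 0.45 in fl/fl cells (limma adjusted p = 1.52e-05 and 2.94e-05), the largest increase of the 28 in both, and it was called on the deposited scale too (4.26 and 4.30). Day 8 minus day 5 was 2.05 ± 0.45 in del/del and 1.95 ± 0.45 in fl/fl cells.

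Timp3, the matrix-bound inhibitor, stood at -0.30 and 0.54 in del/del and 0.60 and 0.36 in fl/fl libraries on day 1, at 2.64 and 2.23 against 2.32 and 3.12 on day 5, and at 4.38 and 4.56 against 4.94 and 4.69 on day 8. It rose at each step, by 2.32 ± 0.33 and then 2.03 ± 0.33 in del/del and by 2.24 ± 0.33 and then 2.09 ± 0.33 in fl/fl cells. Timp1 rose by 1.40 ± 0.25 in del/del and 1.19 ± 0.25 in fl/fl cells between day 1 and day 5. Its changes between day 5 and day 8, 0.47 ± 0.25 in del/del and -0.02 ± 0.25 in fl/fl cells, were not called. Timp4 had 11 and 2 reads in del/del and 7 and 11 in fl/fl libraries on day 1, at most 1 read in each library on day 5 and 0 in all 4 on day 8, and was not tested.

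Mmp14, the main collagenase of the cell surface, rose in both genotypes at both steps. It stood at 2.76 and 3.23 in del/del and 3.01 and 3.17 in fl/fl libraries on day 1, at 4.81 and 4.63 against 4.71 and 4.72 on day 5, and at 5.98 and 5.79 against 5.94 and 6.28 on day 8. The days did not overlap in either genotype, while the genotypes overlapped on each day. The steps were 1.73 ± 0.18 and 1.16 ± 0.18 in del/del and 1.63 ± 0.18 and 1.39 ± 0.18 in fl/fl cells, all called. Mmp28 (epilysin) stood at -1.98 and -1.19 in del/del and -0.26 and -1.19 in fl/fl libraries on day 1, at 0.33 and 0.48 against 1.41 and 1.12 on day 5, and at 0.34 and 0.42 against 0.61 and 1.01 on day 8, and its first step was 1.99 ± 0.45 in del/del and 2.00 ± 0.45 in fl/fl cells.

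The largest fall was that of Mmp25, a GPI-anchored MMP known from neutrophils. It stood at 2.34 and 2.78 in del/del and 2.43 and 2.14 in fl/fl libraries on day 1, at -0.72 and -2.33 against -0.30 and -0.32 on day 5, and at -2.09 and -2.99 against -1.91 and -1.80 on day 8. Every day 1 library lay above every later one. Day 5 minus day 1 was -4.08 ± 0.56 in del/del and -2.59 ± 0.56 in fl/fl cells (limma adjusted p = 0.000261 and 0.00387). Adamts19 stood at 0.16 and 0.11 in del/del and -0.56 and -0.19 in fl/fl libraries on day 1 and at -1.45 and -2.0 against -2.15 and -2.51 on day 5, a change in del/del cells of -1.86 ± 0.57 and in fl/fl cells of -1.96 ± 0.57, so that del/del lay above fl/fl on all 3 days. Mmp17 stood at 1.91 and 1.85 in del/del and 1.44 and 2.22 in fl/fl libraries on day 1 and at 0.47 and 1.13 against 0.05 and 0.75 on day 5. Its fall was called in fl/fl (-1.43 ± 0.43) and not in del/del cells (-1.08 ± 0.43, limma adjusted p = 0.0687), and the 2 changes were not called different.

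Mmp11 fell in both genotypes by day 5, and its later rise was called in del/del cells and not in fl/fl cells. It stood at 3.0 and 3.24 in del/del and 3.21 and 3.16 in fl/fl libraries on day 1 and at 1.79 and 1.72 against 1.96 and 2.21 on day 5, a change in del/del cells of -1.37 ± 0.19 and in fl/fl cells of -1.10 ± 0.19. By day 8 it was 3.03 ± 0.19 above day 5 in del/del cells (limma adjusted p = 8.24e-05) and 0.64 ± 0.19 in fl/fl cells (0.0646).

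Among the ADAMTS proteases the first step raised Adamts1 in both genotypes. It stood at -0.17 and 0.72 in del/del and 0.47 and 0.85 in fl/fl libraries on day 1, at 2.16 and 2.33 against 2.24 and 2.83 on day 5, and at 2.45 and 2.64 against 2.10 and 2.59 on day 8. The step was 1.97 ± 0.35 in del/del and 1.87 ± 0.35 in fl/fl cells. Adamts17, a relative of Adamts10 tied to eye and connective tissue disease, stood at -1.5 and -1.19 in del/del and -1.56 and -3.19 in fl/fl libraries on day 1 and at 0.19 and 0.26 against -0.01 and 0.14 on day 5. It rose by 1.56 ± 0.55 in del/del and 2.44 ± 0.55 in fl/fl cells. Adamts7 stood at 1.5 and 1.35 in del/del and 1.19 and 1.36 in fl/fl libraries on day 1, at 2.32 and 2.47 against 2.16 and 2.71 on day 5, and at 3.54 and 3.71 against 2.94 and 3.35 on day 8, and it was called at each step in del/del and at the first in fl/fl cells. Adamts6 stood at 1.72 and 1.59 in del/del and 1.82 and 1.84 in fl/fl libraries on day 1, at 2.28 and 2.85 against 2.41 and 1.83 on day 5, and at 1.93 and 2.13 against 2.03 and 3.99 on day 8, and no step was called.

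The aggrecan- and versican-cutting Adamts4 and Adamts8 were called between day 1 and day 5 in fl/fl cells. Adamts4 stood at -1.5 and -0.86 in del/del and -2.70 and -1.60 in fl/fl libraries on day 1, at 0.02 and 0.32 against -0.77 and 0.70 on day 5, and at 2.34 and 2.24 against 2.00 and 2.37 on day 8. The first step was 1.35 ± 0.55 (limma adjusted p = 0.0717) in del/del and 2.12 ± 0.55 (0.0103) in fl/fl cells, and the second was called in both (2.12 ± 0.55 and 2.22 ± 0.55). Adamts8 had 15 and 4 reads in del/del and 0 and 7 in fl/fl libraries on day 1 and 15 and 10 against 9 and 41 on day 5. Its fitted step in fl/fl cells, 3.15 ± 1.10, rests in part on the entry for 0 reads and was not called with the line as a block (limma adjusted p = 0.0551). No change with time of Adamts4, Adamts7 or Adamts8 was called different between genotypes.

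**Figure D5:**
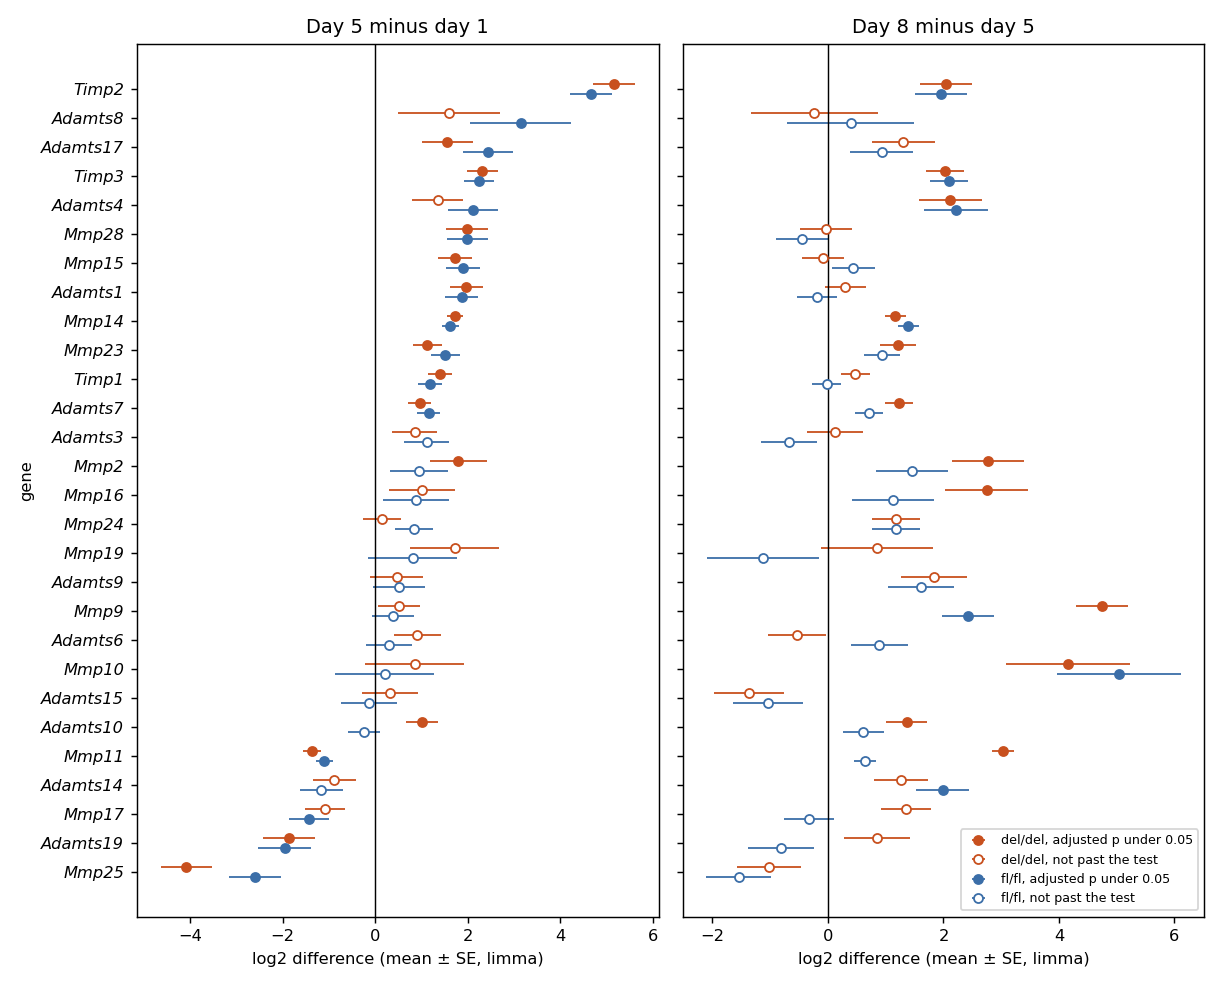
Change of the 28 tested genes with time (log2, mean ± SE from limma) in del/del (upper point of each pair) and fl/fl cells, for day 5 minus day 1 and day 8 minus day 5, with filled points for an adjusted p under 0.05. Timp2 leads and Mmp25 closes the first step in both genotypes, and in the second step Mmp9, Mmp11 and Mmp10 stand furthest right in del/del cells, the value of Mmp10 depending on the entry for 0 reads.

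Between day 5 and day 8, 12 of the 28 rose and 0 fell in del/del cells, where 7.24% of all tested genes rose and 4.67% fell. In fl/fl cells 7 rose and 0 fell, where 3.15% rose and 3.58% fell (6.73% in all). Those called in both were Mmp9, Mmp10, Mmp14, Adamts4, Timp2 and Timp3. Mmp10, and Mmp16 among those called in del/del cells, exceeded a log2 value of 0 as deposited in day 8 libraries only. Their rises are thus in part built into the choice of tested genes. The median difference over the 28 was 1.22 in del/del (the same with Mmp10 at its lower bound) and 0.80 in fl/fl cells, against -0.01 and 0.00 over all genes. Leaving out a day 8 del/del library left 4 (line 1) or 5 (line 3) calls in del/del cells. In fl/fl cells, leaving out line 3 of the day 8 fl/fl group left 3, leaving out line 1 of the day 5 group left 1, and leaving out line 1 of the day 8 group gave 11. On the deposited scale 16 rose in del/del cells and 0 were called in fl/fl cells by limma (8 at an unadjusted p under 0.05).

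Mmp9 had 20 and 18 reads in del/del and 16 and 39 in fl/fl libraries on day 5 and 1147 and 778 against 202 and 21 on day 8. It stood at -0.98 and -0.51 in del/del and -0.26 and -1.02 in fl/fl libraries on day 1 and at -0.30 and -0.16 against -0.47 and -0.03 on day 5, so that the genotypes overlapped on both days. Day 8 minus day 5 was 4.75 ± 0.45 in del/del (limma adjusted p = 0.000289) and 2.42 ± 0.45 in fl/fl cells (0.0138), and, as given above, these changes were not called different. Mmp2 stood at 0.96 and 1.15 in del/del and 1.19 and 0.72 in fl/fl libraries on day 1 and at 2.42 and 3.30 against 2.78 and 1.04 on day 5. It rose at both steps in del/del cells (1.80 ± 0.62 and 2.77 ± 0.62) and was called at neither in fl/fl cells (0.95 ± 0.62 and 1.45 ± 0.62). Mmp16, a membrane-bound MMP, had 6 and 6 reads in del/del and 3 and 11 in fl/fl libraries on day 1, 8 and 5 reads in del/del and 4 and 21 in fl/fl libraries on day 5 and 70 and 88 against 19 and 5 on day 8, a change between day 5 and day 8 of 2.75 ± 0.71 in del/del cells (limma adjusted p = 0.0313) and 1.13 ± 0.71, not called, in fl/fl cells. Adamts14, a procollagen N-proteinase, stood at 0.85 and 1.19 in del/del and 0.74 and 0.30 in fl/fl libraries on day 1, at 0.13 and 0.13 against -1.01 and -0.27 on day 5, and at 1.37 and 1.43 against 0.68 and 2.01 on day 8. The second step was called in fl/fl (1.98 ± 0.46, limma adjusted p = 0.0321) and not in del/del cells (1.27 ± 0.46, 0.101). For Mmp2, Mmp16 and Adamts14, too, no change with time was called different between genotypes.

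The chromosome 9 cluster (mm10 chr9:7272514-7699585, 10 genes over 427 kb: the collagenases Mmp1a, Mmp1b, Mmp8 and Mmp13, the stromelysins Mmp3 and Mmp10, and Mmp7, Mmp12, Mmp20 and Mmp27) was almost silent until day 8. Together its genes had 4 and 11 reads in del/del and 10 and 5 in fl/fl libraries on day 1, 2 and 1 against 2 and 5 on day 5, and 129 and 16 against 34 and 30 on day 8. Of its 249 reads, 139 were those of Mmp10, stromelysin-2, which had 1 and 0 reads in del/del and 2 and 0 in fl/fl libraries on day 1, 0 and 0 in del/del and 0 and 2 in fl/fl libraries on day 5 and 80 and 11 against 22 and 21 on day 8. Against a floor of 3 reads over the day 5 group, Mmp10 was at least 16.5-fold higher on day 8 in del/del cells, and the line 3 library alone, with its 11 reads, gave at least 4.13-fold. The ratio in fl/fl cells was 36.0 (exact 95% interval 9.39 to 307.2, counting error only). The genotypes overlapped on day 8, with a depth-scaled ratio of del/del to fl/fl reads of 0.952 (0.655 to 1.40). Mmp13 had 30 and 1 reads in del/del and 3 and 0 in fl/fl libraries on day 8, nearly all in 1 library.

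The 18 genes that were not tested had 0 to 167 reads over the 12 libraries, 7 of them under 10, and Mmp7 had 0. Among them Adamts20, a versican-cutting enzyme needed for the spread of pigment cells in mouse skin, had 1 and 6 reads in del/del and 0 and 0 in fl/fl libraries on day 1, 24 and 41 against 18 and 16 on day 5, and 26 and 30 against 5 and 0 on day 8. On day 8 the ratio of del/del to fl/fl was 5.04 (exact 95% interval 2.04 to 16.1, counting error only), and on day 5 it was 2.66 (1.73 to 4.15). Adamts16 had 21 and 11 reads in del/del and 41 and 7 in fl/fl libraries on day 8, a ratio of 0.30 (0.186 to 0.479). Adamts12 had 26 and 43 reads against 12 and 6, and the aggrecanase Adamts5 24 and 35 against 13 and 0, on day 8. Scaled for depth, the ratios were 1.725 (1.015 to 3.079) for Adamts12 and 2.04 (1.11 to 4.06) for Adamts5. The scaled Adamts12 levels overlapped between genotypes (-0.71 and 0.12 against -1.32 and -0.22, log2). With 2 libraries a group and few reads, these values were not tested across libraries.

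Genes that act with these enzymes were also read on day 8, where 7.95% of all tested genes were higher and 7.05% lower, shares near which several of these counts lie. Of 15 tested regulators and activators of matrix proteases, 2 were higher in del/del cells (the clearance receptor Lrp1 by 1.02 ± 0.21 and Thbs1 by 1.02 ± 0.29, limma adjusted p = 0.0158 and 0.0394) and 2 lower, among them the urokinase receptor Plaur (-1.56 ± 0.36). Of 8 tested proteoglycan substrates, link proteins and hyaluronan synthases, 2 were higher, Vcan (versican, the main ADAMTS substrate of the embryo) by 1.62 ± 0.37 and Has2 by 3.33 ± 0.77, and 0 lower. ADAMTS-like proteins, which lack the protease domain, had 1 of 5 higher (Thsd4, 1.99 ± 0.52) and 0 lower. Of 14 tested collagens and basement membrane proteins, Col2a1 (3.65 ± 0.45) and Eln (2.65 ± 0.62) were higher and 5 were lower, among them Col4a2 (-1.26 ± 0.29) and Fn1 (-1.06 ± 0.25). Of 11 other metzincin proteases, Adam22 was higher (1.71 ± 0.52) and Mep1b lower (-2.08 ± 0.45). Of 12 AP-1 and ETS transcription factors, known regulators of several MMP promoters, 0 were higher and 2 lower (Elf3, -1.69 ± 0.38, and Ets2, -0.83 ± 0.23). The medians of these lists were -0.38, 1.24, 0.71, -0.50, -0.25 and -0.40, in the order given, against 0.02 over all genes. As deposited, every difference in these lists is larger by 0.88 (log2). On that scale Ets2, Lamb1 (-0.63 here, among the 5 called lower) and the negative medians have the other sign, so no direction is given for them. Fn1 and Col4a2 remain negative but nearer to no difference. Without the shallow fl/fl library of line 3, Col2a1 (3.12) and Fn1 (-0.55) were called and the other genes were not, though Thsd4 (2.37), Mep1b (-2.25) and Elf3 (-1.59) kept differences of about the same size.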

How the data were processed

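The deposited table holds log2 RPM for 25965 genes in 12 libraries, per the labels; the submitters' processing notes name bcl2fastq, TopHat2 2.0.12, edgeR and build mm10, with roles, strand and duplicate handling not given in the sources used here. Taken out of the log2, all deposited values are whole multiples of 1 step per library (100% within 0.02 reads; 0 reads entered as 0.9), so read numbers and denominators (14.9 to 34.0 M reads) were recovered. Each library was then shifted by the median of its log2 ratios to the mean library.

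The 14063 genes above a log2 of 0, as deposited, in 2 or more libraries were fitted with limma 3.58.1 in R 4.3.3: 6 group means, mean-variance trend, Benjamini-Hochberg adjustment over all 14063, called under 0.05. The script was tested on simulated counts with the same spread for every gene and no difference between lines, unlike the real libraries. That test checks the script and not the calls. Read ratios carry exact (Clopper-Pearson) 95% intervals, for counting error only. Exon lengths and overlaps came from GENCODE M21 (all 46 genes matched by symbol), coordinates from the deposited table, promoters from RefSeq.

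Same-numbered libraries come from the same split line, per the labels' protocols, yet their deviations correlated by 0.13 (day 1), -0.15 (day 5) and -0.11 (day 8) between genotypes. Alternatives were the deposited scale, a pseudocount of 2 reads, no filter, voom on the recovered reads, the line as a block and each library left out. The genes and all lists were chosen with earlier results of these data known. Values in every library were given for genes called between genotypes, the 3 highest of each family per kb, and the 5 largest called changes in each direction with time; Mmp19, Mmp15, Mmp13, Adamts20, Adamts16, Adamts12 and Adamts5 were added after their values were seen. Of the regulators of matrix proteases, 1 called gene is not reported here by name.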

Additional observations from a re-analysis of the deposited data

Results flagged for a closer look

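Mmp11 stood out because its change between day 5 and day 8 differed between genotypes by a test of that difference (interaction of 2.39 ± 0.26 on the log2 scale, limma adjusted p = 0.0306). It rose by 3.03 ± 0.19 in del/del cells, with a level of 4.67 and 4.90 at day 8, and the change was 0.64 ± 0.19 in fl/fl cells, with 2.64 and 2.81 at day 8. The call was lost with the line as a block and in 8 of 12 fits that left out a library. Groups of 2 libraries are too small for a test of single libraries that lie far from the rest.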

How the results depend on the processing

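At day 8 the count of called genes, 6, ranged from 1 to 9 when a library was left out: 1 without the del/del library of line 3 and 2 without the shallow fl/fl library of line 3. On the deposited scale, 7 genes were called in del/del and 8 in fl/fl cells between day 1 and day 5, and 0 in fl/fl cells between day 5 and day 8, against 15, 16 and 7 relative to the median gene. Averaged over days, the 1 called gene became 0 on the deposited scale, with a pseudocount of 2 reads and with the replicate block, and 2 without the filter. The Mmp11 interaction was lost (0 called) with the replicate block and by voom. With a library left out, the counts ranged from 0 to 2 at day 5, 0 to 8 averaged over days, 0 to 4 for the interaction of day 8 and day 5, 9 to 17 (del/del) between day 1 and day 5, and 4 to 14 (del/del) and 1 to 11 (fl/fl) between day 5 and day 8. None of the called results of the 28 genes changed direction in these alternatives. Of the genes in the other lists called lower on day 8, Ets2, Lamb1 and Pou5f1 had the other sign on the deposited scale. The replicate block left 59 of 64 results on their side of the threshold. The cause of these changes was not tested. The day 8 fl/fl group rests on 1.51 M gene reads in line 3, so that genes with few reads there, such as Adamts19 and Mmp19, are imprecise.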
